A study of Mus musculus with 6 samples.

Results

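The collagen gene family was described in mouse embryonic fibroblasts (MEFs), primary cells of connective tissue taken from embryos. Members were the protein-coding genes of the deposited tables whose GRCm38 symbol is Col, a number, a and a number, as in Col1a1. This gave 44 genes of the 55487 listed. By textbook class they were 11 fibrillar, 9 network, 9 FACIT (fibril-associated collagens with interrupted triple helices), 8 beaded filament, 4 transmembrane and 2 multiplexin collagens, and 1 anchoring fibril collagen, Col7a1.

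RNA was sequenced in 6 libraries, 1 for each genotype, wild type (WT) or knockout (KO), at each of passages 2, 3 and 4. At a passage the cells are detached and plated again. Each group received no treatment and ordinary culture, per the labels, which name neither the knocked-out gene, the strain, the age of the embryos nor the number of embryos or lines. Genotype was taken from the titles. A second label, the genotype tag, calls the passage 3 and passage 4 libraries titled KO wild type instead. Nothing says that the 3 libraries of a genotype came from separate cultures, and p-values then measure only the spread among the libraries. That spread includes change with passage unless passage is in the model, and the rest may be technical.

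Collagens are extracellular proteins of 3 chains wound into a triple helix, a fold that needs glycine in a regular repeat along the chain. Fibrillar collagens form the banded fibrils that carry tension in skin, bone and tendon, and fibroblasts are their main source. FACIT members sit on the surface of those fibrils. Network collagens form sheets such as the basement membrane, and type VI collagen forms beaded filaments around cells. Transmembrane members and multiplexins are found at the cell surface and in basement membranes.

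The glycine repeat that defines the family can be read in the coding sequence, so a stretch of 24 codons is printed for one or more members of each abundant class and for Col2a1, the single member called higher in KO. The stretches are read 5′ to 3′ on the coding strand of GENCODE M21 transcripts, with each glycine codon (GGN) that opens a triplet of an unbroken run in capitals.
Col1a1: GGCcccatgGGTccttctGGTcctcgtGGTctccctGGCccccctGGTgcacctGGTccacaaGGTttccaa
Col2a1: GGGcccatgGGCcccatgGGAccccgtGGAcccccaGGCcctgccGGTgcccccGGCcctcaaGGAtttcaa
Col3a1: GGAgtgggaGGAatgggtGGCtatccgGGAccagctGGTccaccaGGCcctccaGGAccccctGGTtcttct
Col4a1: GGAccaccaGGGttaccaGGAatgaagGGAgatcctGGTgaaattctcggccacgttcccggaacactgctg
Col6a1: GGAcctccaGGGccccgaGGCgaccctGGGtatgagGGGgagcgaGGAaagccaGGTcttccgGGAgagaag
Col12a1: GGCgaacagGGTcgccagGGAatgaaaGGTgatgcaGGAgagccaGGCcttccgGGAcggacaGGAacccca

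The Col1a1, Col2a1, Col3a1, Col6a1 and Col12a1 stretches start at the first codon of the longest run of their gene, codons 168, 201, 164, 256 and 2805. That of Col4a1 covers codons 148 to 171 and shows a run ending at codon 162, after which the spacing of glycine codons breaks. The longest unbroken run was 338 triplets in Col1a1, 339 in Col1a2 and Col2a1, and 344 in Col3a1. Among the fibrillar members it ranged from 216 triplets in Col24a1 to that of Col3a1. In the network class the longest run was 39 to 66 triplets, yet 58.9% to 78.8% of codons lay in runs of 5 or more triplets. Such runs numbered 22 in Col4a1 and 9 in Col8a1, the member with 58.9%. The longest run was 87 triplets in Col6a1 and Col6a2, and Col12a1 one of 32. Despite the shared repeat, at most 3.21% of the 64-base words of a member's transcripts also occurred in another gene, and the value was above 0 in 7 members.

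Levels are given as TPM, transcript abundances that the authors' quantification scaled for length. Averaged over the 6 libraries, Col1a1 stood highest at 4731 TPM, followed by Col1a2 at 3330 TPM and Col3a1 at 2050 TPM. Next came Col5a2 at 1012 TPM, Col5a1 at 892 TPM, Col12a1 at 723 TPM and Col4a1 at 529 TPM. In all, 14 members averaged at least 50 TPM and 15 averaged under 1 TPM. Col1a1, the α1 chain of type I collagen, ranked 8 among the genes of the WT library of passage 2 and 19 in the KO library of passage 3.

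Collagen transcripts made up 2.23%, 1.85% and 1.60% of all TPM in WT at passages 2, 3 and 4, and 1.04%, 0.973% and 1.18% in KO. The means were 1.89% ± 0.318 (SD, n = 3) in WT and 1.07% ± 0.107 (SD, n = 3) in KO, with no overlap between genotypes (exact two-sided permutation p = 0.1, the smallest that 3 against 3 allows; adjusted over 9 shares, 0.18). Fibrillar members accounted for most of the gap, at 1.60% ± 0.313 in WT and 0.829% ± 0.0795 in KO. Beaded filament members held 0.09997% ± 0.00757 and 0.0584% ± 0.00992, and FACIT members 0.0976% ± 0.0117 and 0.0627% ± 0.0101 (exact permutation p = 0.1 for each class). The network class had the opposite sign, with 0.0878% ± 0.00773 in WT and 0.109% ± 0.0216 in KO, and the genotypes overlapped (exact permutation p = 0.3). Transcripts of Col1a1, Col1a2 and Col3a1 together were 74.0%, 71.3% and 67.6% of collagen TPM in WT and 66.4%, 61.5% and 60.9% in KO.

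**Figure D1:**
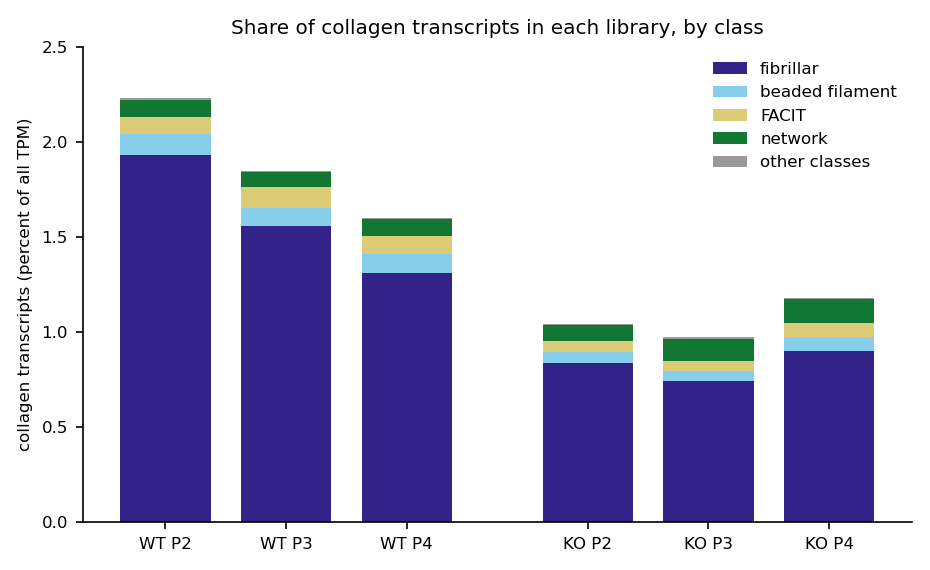
Stacked bars give the percent of all TPM held by collagen genes in each library, split by class, with 1 bar for each genotype and passage (P). The 3 WT bars reach 2.23%, 1.85% and 1.60%, above the KO bars of 1.04%, 0.973% and 1.18%, while the network part averages 0.109% in KO and 0.0878% in WT.

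Libraries held 24853121 to 67760880 expected counts. The KO libraries carried Xist, the X inactivation transcript, at 417 to 567 CPM (counts divided by a library size adjusted with TMM factors), against 0.118 to 0.301 CPM in WT. Ddx3y, a Y-linked gene, stood at 73.4 to 87.98 CPM in WT and at most 0.731 CPM in KO, so genotype and sex cannot be told apart. In both genes the libraries titled KO at passages 3 and 4 were like that of passage 2. Sex thus followed the titles and not the genotype tag, although sex alone does not give the genotype. The 8 fibroblast markers were present in each library and summed to 4207 to 4754 TPM in WT and 4279 to 4850 TPM in KO. Vim alone held 2048 to 2640 TPM in WT and 2809 to 2978 TPM in KO. Of the 8, 6 had a negative sign between genotypes, as had 8564 of all 16603 genes. The median log2 change of the 8 was -0.42, beside -0.01 over all genes. Pdgfra and Dcn were called lower in KO, where 1.55% of all genes were. Summed smooth muscle markers (6 genes) were higher in each KO library, at 5047 to 7137 TPM, than in WT, at 3330 to 4505 TPM. With passage as a block, 4 of 6 smooth muscle markers were called higher in KO, and 4 of 7 macrophage markers, the fibroblast marker Lum and the adipocyte marker Lpl were called lower. In the other lists that fit called Sox9 and Sp7 lower, and Spp1, Krt18 and Des higher. Over all genes the same fit called 4.69% higher and 6.37% lower. In bulk RNA, fewer cells of a type and less RNA per cell cannot be told apart, and the part of these markers in the collagen differences was not tested.

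Between genotypes, 8 collagen genes were lower in KO and 1 was higher, of 38 that passed the filter on low counts. The 8 were the type I, III and V fibrillar chains Col1a1, Col1a2, Col3a1, Col5a1 and Col5a2, with Col24a1, and the type VI chains Col6a1 and Col6a2. Col2a1, the cartilage fibril collagen, was higher. The test was edgeR's quasi-likelihood test of genotype over 16603 genes, with calls at a Benjamini-Hochberg adjusted p under 0.05. Of all genes tested, 0.934% were called higher in KO and 1.55% lower. That split leaned the other way under scaling by library totals (214 higher, 201 lower) and on log2(TPM + 1) (219 higher, 168 lower), against 155 higher and 257 lower here. The median log2 change over the 38 collagen genes was -0.45, beside -0.01 over all genes. A negative sign was seen in 29 of the 38 and in 8564 of all 16603 genes. In 16 of the 38, each KO library lay below each WT library in CPM, and in 2, Col2a1 and Col4a1, above; over all genes tested these shares were 14.1% and 13.1%.

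With passage as a block, 17 collagen genes were lower in KO and 1 higher, while 6.37% and 4.69% of all genes were called in those directions. The additional 9 were Col5a3, Col11a1, Col6a3, Col9a2, Col12a1, Col14a1, Col16a1, Col4a6 and Col23a1. The 9 calls without the block fell to 0 without the WT library of passage 3 and to 1, Col6a2, without the KO library of passage 3. Calls over all genes fell from 412 to 45 and 38 in those fits. Of the 9, 3 remained without the WT library of passage 2, 5 without the KO library of passage 2, and 4 without the KO library of passage 4, where Col8a2 was called in addition. All-gene calls were 109, 206 and 230 in the same order. Without both passage 2 libraries no member and 59 of 16629 genes passed in edgeR. When the genotype followed the tag, 1 KO library, assumed to vary like the WT group, stood against 5. The median log2 change over the 41 members tested was then -0.45, beside -0.03 over all genes. The log2 change of Col1a1 was -0.47 in that fit. Without both passage 2 libraries the unadjusted edgeR p was under 0.05 for 19 of 38 members and 2606 of 16629 genes. Without the WT library of passage 3 it was under 0.05 for 17 of 39 members and 2218 of 16556 genes.

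**Figure D2:**
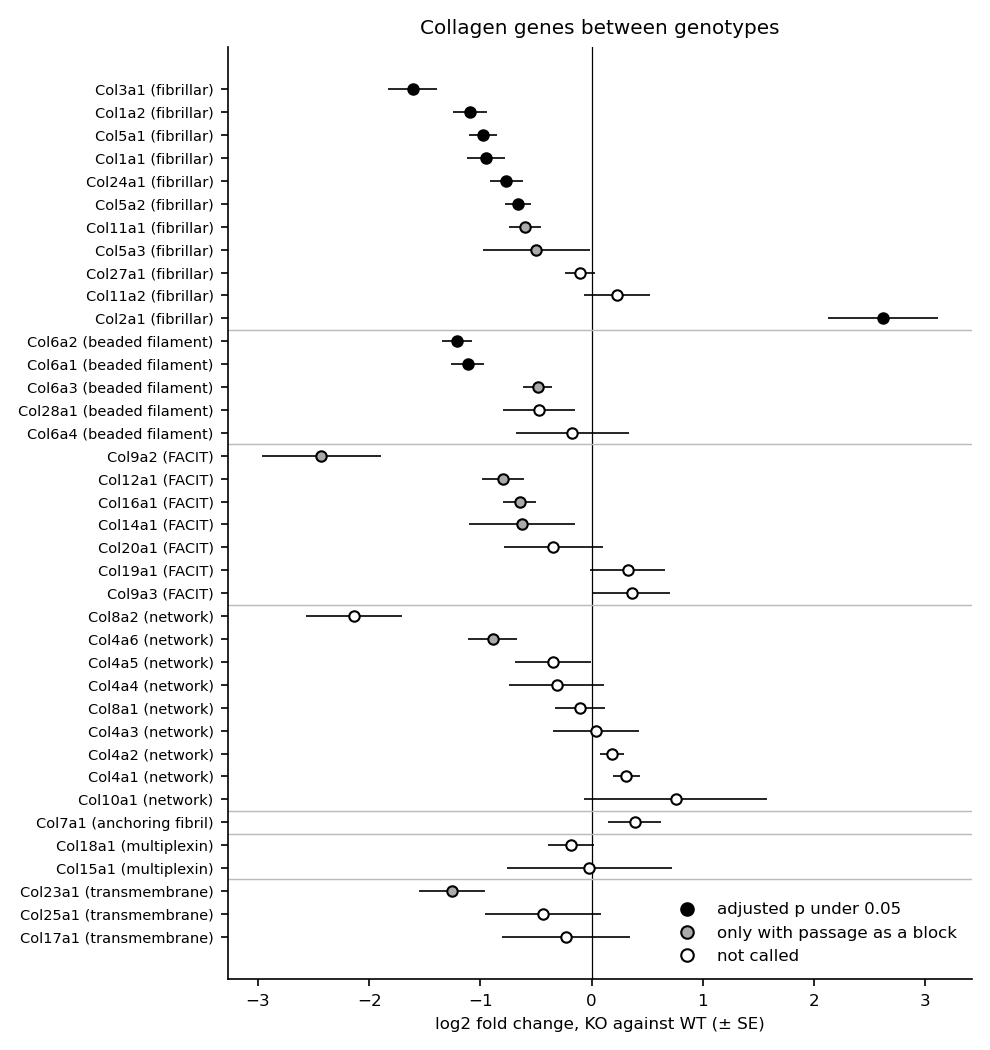
Points give the log2 fold change of KO against WT with its SE for the 38 tested collagen genes, grouped by class. Black points passed an adjusted p under 0.05, grey points passed it only with passage as a block, and 29 of the 38 points lie left of 0, with Col2a1 far to the right at 2.62.

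Of the fibrillar class, 6 of 11 members were lower in KO and 1 higher, where 1.55% and 0.934% of all genes were. Col1a1 (11:94936224-94953042, plus strand) stood at 7237, 6205 and 4742 TPM in WT at passages 2, 3 and 4, and at 3455, 3170 and 3575 TPM in KO. Each KO value lay below each WT value, and the narrowest gap was at passage 4. The log2 change was -0.95 ± 0.17 (SE; edgeR adjusted p = 0.0361). Col1a2, its partner α2 chain, stood at 5154, 4491 and 3579 TPM in WT and at 2252, 2066 and 2437 TPM in KO, a log2 change of -1.09 ± 0.15 (edgeR adjusted p = 0.0187). In TPM, WT levels of both chains were highest at passage 2 and lowest at passage 4, whereas KO levels were lowest at passage 3. In CPM the WT peak was at passage 3, at 23833 for Col1a1 and 15495 for Col1a2, against 23087 and 14639 at passage 2.

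Col3a1, the homotrimeric collagen of elastic tissues, had the steepest decrease of the called members. Its levels were 4129, 2494 and 2511 TPM in WT and 1231, 751 and 1184 TPM in KO. Mean CPM was 3.05 times higher in WT, and the log2 change was -1.61 ± 0.22 (edgeR adjusted p = 0.0171). At the single passages the difference in log2 CPM was -1.57, -1.98 and -1.32. An annotated gene of unknown function, Gm47302, shares 141 exon bases with Col3a1 on the same strand. It had 459, 557 and 248 expected counts in WT and 29.5, 161 and 156 in KO, and how the reads of the shared bases were divided between the pair is not known.

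Type V chains join type I collagen in mixed fibrils. Col5a1 stood at 1292, 1081 and 1059 TPM in WT and at 575, 592 and 755 TPM in KO, with no overlap. Its log2 change was -0.98 ± 0.12 (edgeR adjusted p = 0.0155). Col5a2 stood at 1327, 1174 and 1110 TPM in WT and 736, 769 and 957 TPM in KO, a smaller log2 change of -0.66 ± 0.12 (edgeR adjusted p = 0.0363). The third chain, Col5a3, read 66.0, 30.9 and 21.7 TPM in WT and 44.5, 23.0 and 18.7 TPM in KO. Its genotypes overlapped, and its log2 change of -0.50 ± 0.48 was not called without the block (edgeR adjusted p = 0.605; 0.0187 with it).

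Col24a1, a fibrillar member with a shortened run, had 16.6, 19.0 and 13.5 TPM in WT and 9.56, 10.5 and 12.1 TPM in KO. The log2 change was -0.77 ± 0.15 (edgeR adjusted p = 0.046), and this call sat nearest to the threshold and was lost under 13 of the alternatives. Col11a1, a chain of type XI collagen that also pairs with type V chains, read 105, 94.5 and 73.1 TPM in WT and 61.4, 61.0 and 84.4 TPM in KO. The KO value of passage 4 exceeded the WT value of the same passage in TPM, and the log2 change of -0.60 ± 0.15 passed only with the block (edgeR adjusted p = 0.0798; 0.0448 with it).

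Col2a1 was higher in KO, at a low level. It had 38, 26 and 5 expected counts in WT at passages 2, 3 and 4 and 66, 289 and 146 in KO, or 0.41, 0.20 and 0.25 TPM against 1.14, 1.72 and 1.87 TPM. KO exceeded WT at each passage, with a log2 change of 2.62 ± 0.49 (edgeR adjusted p = 0.0418). Beside it, the 8 cartilage markers summed to 16.2 to 20.0 TPM in WT and 10.4 to 16.8 TPM in KO, most of it Sox9. Of the 4 tested edgeR called none, and 1 had an unadjusted p under 0.05, as had 3543 of all 16603 genes. With the block Sox9, a cartilage transcription factor, was called lower in KO (log2 change -0.64 ± 0.11; edgeR adjusted p = 0.015). Acan, the cartilage proteoglycan, was at 0.20 TPM or less in each library. The remaining fibrillar members, Col11a2 and Col27a1, had log2 changes of 0.23 ± 0.30 and -0.10 ± 0.13 and overlapping genotypes.

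**Figure D3:**
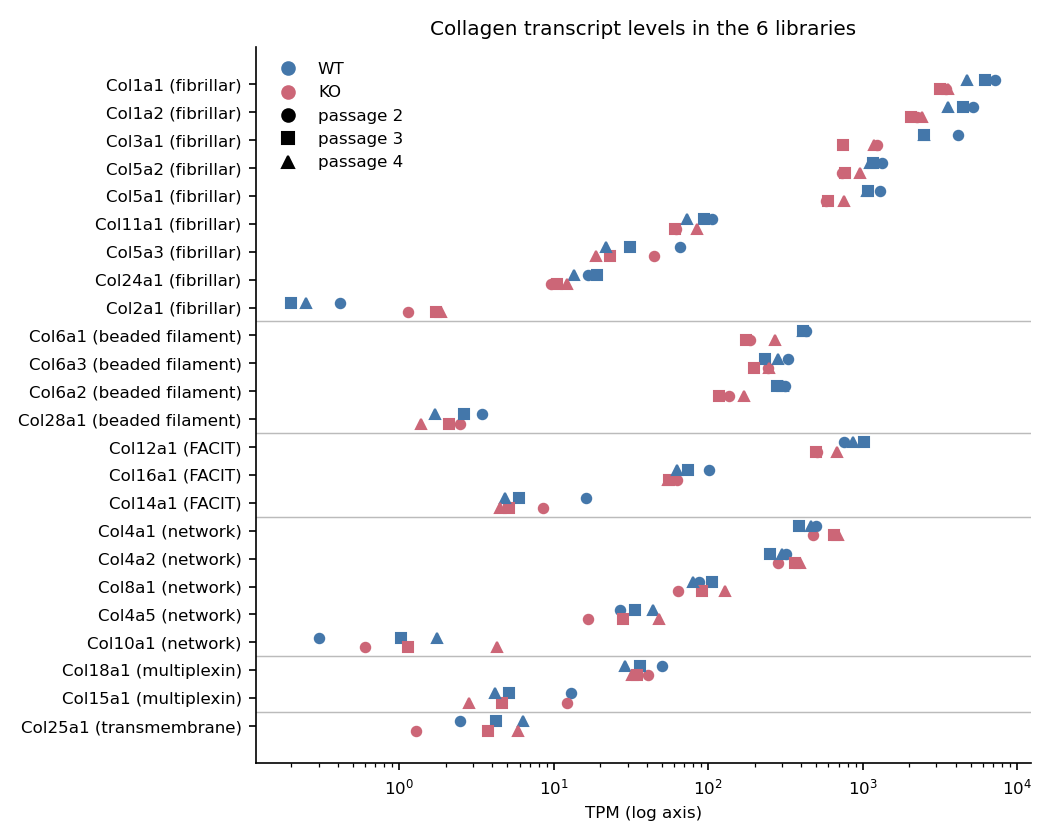
Each row is a collagen gene that averaged at least 50 TPM or was called for genotype or passage, and each point is 1 library on a log TPM axis, coloured by genotype and shaped by passage. KO points of Col1a1, Col1a2, Col3a1, Col5a1, Col5a2, Col6a1 and Col6a2 lie left of the WT points, those of Col2a1 lie right, and Col15a1 separates by passage instead.

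In the beaded filament class, 2 of the 5 tested members were lower in KO and none higher, where 1.55% and 0.934% of all genes were. Col6a1 stood at 430, 411 and 408 TPM in WT and at 187, 175 and 271 TPM in KO, with a log2 change of -1.12 ± 0.15 (edgeR adjusted p = 0.0161). Col6a2 read 315, 280 and 304 TPM in WT and 136, 117 and 170 TPM in KO, a log2 change of -1.21 ± 0.13 (edgeR adjusted p = 0.0098). These genes lie on the same strand of chromosome 10, 85161 bases apart, and their WT and KO ranges did not overlap. Col6a3, the longest chain of the trio, encoded on chromosome 1, read 328, 232 and 282 TPM in WT and 244, 198 and 247 TPM in KO. The TPM ranges overlapped, the CPM ranges did not, and the log2 change of -0.49 ± 0.13 passed only with the block (edgeR adjusted p = 0.096; 0.0252 with it).

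With the block, 4 of 7 tested FACIT members were lower in KO, where 6.37% of all genes were. Without it edgeR called 0, and 3 had an unadjusted p under 0.05, as had 3543 of all 16603 genes. Col12a1, which coats type I fibrils, stood at 760, 1024 and 869 TPM in WT and at 503, 498 and 681 TPM in KO. All KO values were below the WT values, and the log2 change was -0.80 ± 0.19 (edgeR adjusted p = 0.0768; 0.0343 with the block). Col16a1 read 101, 74.1 and 62.6 TPM in WT and 62.4, 55.7 and 54.7 TPM in KO, a log2 change of -0.65 ± 0.15 (edgeR adjusted p = 0.0733; 0.0114 with the block). The passage 2 KO value lay just under the passage 4 WT value, and within each passage KO was lower. Col9a2, a chain of cartilage type IX collagen, had 40, 43 and 11 expected counts in WT and 7, 11 and 2 in KO, with a log2 change of -2.43 ± 0.53 (edgeR adjusted p = 0.065; 0.0142 with the block).

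Network members varied in sign. Without the block edgeR called none of the 9, while 3 had an unadjusted p under 0.05, as had 3543 of all 16603 genes. Basement membrane chains Col4a1 and Col4a2 were among the abundant members that were not lower in KO. Col4a1 read 496, 385 and 465 TPM in WT and 480, 656 and 690 TPM in KO. Its TPM ranges overlapped, although each KO library was above each WT library in CPM, and the log2 change was 0.31 ± 0.12 (edgeR adjusted p = 0.199). Col4a2 read 317, 250 and 301 TPM in WT and 284, 366 and 392 TPM in KO, a log2 change of 0.18 ± 0.11 (edgeR adjusted p = 0.382). At passage 2 the KO value was the lower of the pair in TPM for both chains.

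Col8a1, a short-chain network collagen of vessel walls and the cornea, stood at 87.1, 105 and 79.9 TPM in WT and at 64.2, 90.9 and 128 TPM in KO. The genotypes overlapped, with a log2 change of -0.10 ± 0.22 that changed sign between units. Its partner Col8a2 read 10.6, 14.5 and 10.4 TPM in WT and 2.38, 1.49 and 5.14 TPM in KO. These ranges were apart, but the log2 change of -2.14 ± 0.43 did not pass (edgeR adjusted p = 0.0568; 0.0591 with the block). X-linked Col4a5 and Col4a6 had log2 changes of -0.35 ± 0.34 and -0.89 ± 0.22, and only Col4a6 passed with the block (edgeR adjusted p = 0.0296). For these X-linked genes too, genotype and sex cannot be told apart.

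Among the other classes, the transmembrane Col23a1 had a log2 change of -1.26 ± 0.30 and passed with the block (edgeR adjusted p = 0.0768; 0.019 with it). Its levels ran from 1.75 to 3.52 TPM in WT and from 0.80 to 1.38 TPM in KO. Col7a1, which anchors the epidermis to the dermis, ran from 20.4 to 22.6 TPM in WT and from 19.0 to 44.9 TPM in KO, and its log2 change of 0.39 ± 0.24 was not called. The multiplexins Col15a1 and Col18a1, basement membrane collagens that release antiangiogenic fragments, had log2 changes of -0.02 ± 0.74 and -0.19 ± 0.20.

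The 6 members left out by the filter were Col6a5, Col6a6, Col9a1, Col13a1, Col22a1 and Col26a1. They had 16 to 82.3 expected counts over all 6 libraries. Of the 82.3 counts of Col6a6, 63.8 came from the WT library of passage 2. Col26a1 was at 0 counts in WT at passage 3, WT at passage 4 and KO at passage 4, where 3 counts, the limit that a 0 allows, correspond to 0.0751, 0.124 and 0.0954 CPM.

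Ratios of TPM between chains of one collagen were compared, because the protein is assembled from fixed sets of chains. The Col1a1/Col1a2 ratio was 1.40, 1.38 and 1.32 in WT and 1.53, 1.53 and 1.47 in KO. KO ratios lay above WT, although the means differed little, 1.37 ± 0.0409 (SD, n = 3) against 1.51 ± 0.0388 (SD, n = 3; exact permutation p = 0.1). The Col5a1/Col5a2 ratio went down, from 0.973, 0.921 and 0.954 in WT to 0.781, 0.770 and 0.789 in KO. For type VI collagen, Col6a1/Col6a2 overlapped (1.39 ± 0.0663 in WT, 1.49 ± 0.108 in KO; SD, n = 3; exact permutation p = 0.2). Col6a3/Col6a1 did not, at 0.762, 0.566 and 0.690 in WT and 1.31, 1.13 and 0.913 in KO.

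The Col4a1/Col4a2 ratio was 1.57, 1.54 and 1.55 in WT and 1.69, 1.79 and 1.76 in KO. Col8a1/Col8a2 had the widest separation, 8.20, 7.26 and 7.69 in WT and 26.95, 61.0 and 24.9 in KO. For the 5 ratios whose genotypes did not overlap the exact permutation p was 0.1, and it was 0.12 after adjustment over 6 ratios. No ratio could therefore pass a threshold of 0.05 in this design.

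**Figure D4:**
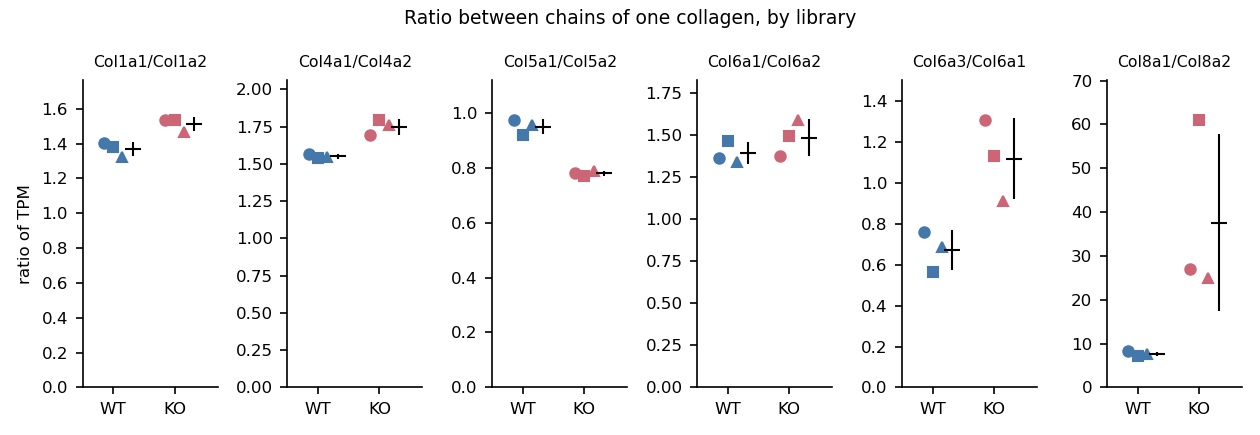
Each panel gives the TPM ratio of a pair of chains in the 6 libraries, coloured by genotype and shaped by passage (circle 2, square 3, triangle 4), with the mean and SD of 3 libraries in black on a linear axis from 0. The genotypes are apart in each panel but Col6a1/Col6a2, and Col8a1/Col8a2 spreads widely in KO, from 24.9 to 61.0.

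Passage was tested as a linear slope per passage shared by both genotypes, with genotype in the model. Col4a5, Col10a1 and Col25a1 rose with passage, and Col5a3, Col14a1, Col15a1, Col18a1 and Col28a1 fell. These 8 of 38 compare with 2.78% of all genes called higher and 3.48% called lower. None of the 8 genes was among the 9 called for genotype without the block, and Col5a3 and Col14a1 were among the 18 called with it. The count fell to 4 without the WT library of passage 2 or without the KO library of passage 4.

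Col15a1, a multiplexin of basement membranes, had the steepest slope of the members that fell. It read 12.9, 5.16 and 4.17 TPM in WT at passages 2, 3 and 4 and 12.1, 4.63 and 2.81 TPM in KO. Each step was downward in both genotypes, and the log2 slope was -1.19 ± 0.10 per passage (edgeR adjusted p = 0.0016). Col14a1, a FACIT member of dense connective tissue, went from 16.2 to 5.93 and 4.80 TPM in WT and from 8.50 to 5.10 and 4.47 TPM in KO (log2 slope -0.72 ± 0.10; edgeR adjusted p = 0.0068). The fall was larger between passages 2 and 3 than between 3 and 4.

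For Col5a3, whose levels stand above, the log2 slope was -0.75 ± 0.07 (edgeR adjusted p = 0.0023). Col18a1, the source of endostatin, declined more gently, from 50.1 to 36.4 and 29.1 TPM in WT and from 40.6 to 34.5 and 32.2 TPM in KO (log2 slope -0.31 ± 0.05; edgeR adjusted p = 0.0159). Col28a1, a beaded filament member described in peripheral nerve, went from 3.44 to 2.62 and 1.71 TPM in WT and from 2.46 to 2.10 and 1.38 TPM in KO (log2 slope -0.48 ± 0.11; edgeR adjusted p = 0.0434). In these genes every step was downward in both genotypes.

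Among the members that rose, Col10a1, the network collagen of hypertrophic cartilage, went from 0.30 to 1.03 and 1.75 TPM in WT and from 0.60 to 1.14 and 4.26 TPM in KO (log2 slope 1.32 ± 0.18; edgeR adjusted p = 0.008). Its counts were low, 21 to 211 in a library. Col25a1, a transmembrane collagen, went from 2.45 to 4.23 and 6.33 TPM in WT and from 1.29 to 3.75 and 5.84 TPM in KO (log2 slope 0.83 ± 0.12; edgeR adjusted p = 0.0086). Col4a5, a basement membrane chain, rose from 26.9 to 33.4 and 43.6 TPM in WT and from 16.7 to 27.9 and 48.0 TPM in KO (log2 slope 0.53 ± 0.06; edgeR adjusted p = 0.0046). Its head-to-head neighbour Col4a6, 1308 bases away on chromosome X, had a log2 slope of 0.11 ± 0.12 and was not called.

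The abundant fibrillar chains had small slopes that did not pass: -0.16 ± 0.08 for Col1a1, -0.12 ± 0.08 for Col1a2 and -0.18 ± 0.11 for Col3a1 on the log2 scale per passage. Markers of other cells moved with passage as well. All 7 macrophage markers fell, from a sum of 492 to 239 and 68.3 TPM in WT and from 337 to 119 and 61.0 TPM in KO. Of the other lists, 5 of 6 adipocyte, 3 of 7 tested endothelial, 3 of 7 tested epithelial, 3 of 5 tested glial and both tested skeletal muscle markers fell, and 3 of 6 smooth muscle markers rose. Over all genes 3.48% fell and 2.78% rose. The part of these markers in the collagen slopes was not tested.

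**Figure D5:**
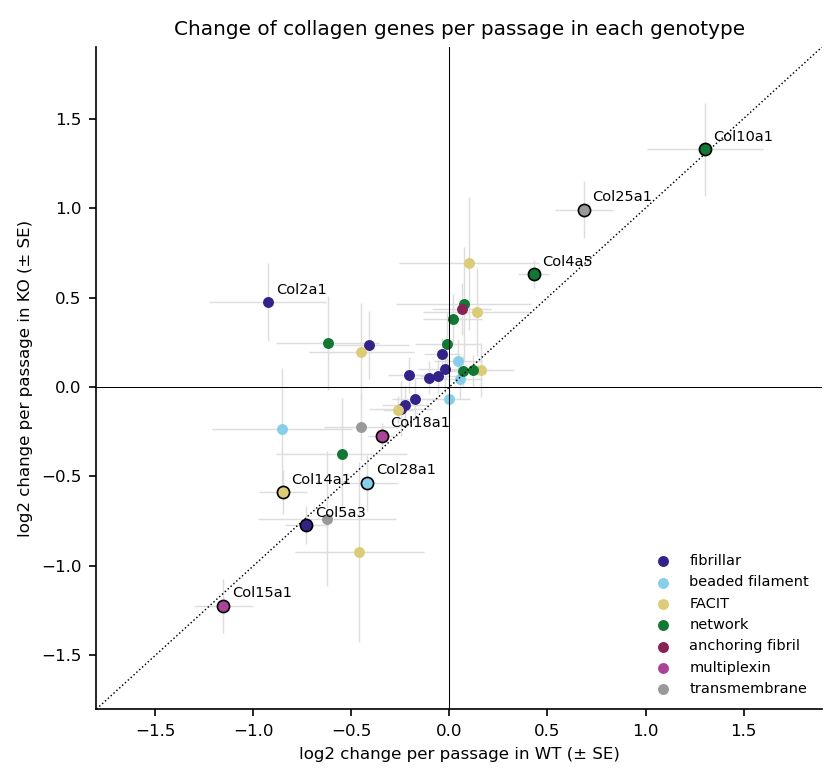
Each point is 1 of the 38 tested collagen genes, placed by its log2 change per passage in WT (x axis) and in KO (y axis), with SE bars and the line of equal slopes dotted. Outlined and larger points passed the slope test over both genotypes and lie near the line, while Col2a1 lies above it, at -0.93 in WT and 0.47 in KO.

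The difference between the slopes of the genotypes was tested as an interaction. No collagen gene and no gene of the 16603 (0%) passed with edgeR, 1 member and 1137 genes having an unadjusted p under 0.05. DESeq2 called 83 genes, none a collagen, and limma on log2(TPM + 1) called 2, none a collagen. The member was Col2a1, with a log2 slope of -0.93 ± 0.30 in WT and 0.47 ± 0.22 in KO. Its difference was 1.40 ± 0.37 (edgeR unadjusted p = 0.0081, adjusted 0.574). Without the filter on low counts it passed. Over the 38 members the difference had a negative sign in 9, as in 7757 of all 16603 genes. The median was 0.15 beside 0.02 over all genes.

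Position was compared with these changes for members that are neighbours. Col3a1 and Col5a2 lie tail to tail on chromosome 1, 24614 bases apart, and both were lower in KO. Head-to-head Col4a1 and Col4a2 overlap by 22 bases at their starts on chromosome 8, and neither was called. Col4a4 and Col4a3, head to head 71 bases apart on chromosome 1, averaged 0.16 and 0.21 TPM and were not called.

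Promoter windows of 150 bases before the RefSeq start (GRCm38.p6) were found for 35 members, 38 windows in all. Windows of a pair of called members are printed because both genes were lower in KO while their start regions differ in base composition. Capitals mark the motif found on either strand.
Col3a1, chr1:45311388-45311537, plus strand: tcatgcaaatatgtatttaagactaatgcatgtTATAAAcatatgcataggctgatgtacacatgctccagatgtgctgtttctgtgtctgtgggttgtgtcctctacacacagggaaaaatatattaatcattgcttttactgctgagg
Col5a1, chr2:27886275-27886424, plus strand: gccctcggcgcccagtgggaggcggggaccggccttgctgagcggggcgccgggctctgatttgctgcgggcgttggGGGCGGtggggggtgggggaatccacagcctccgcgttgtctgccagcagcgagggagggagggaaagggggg

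The Col3a1 window holds a TATAAA and the Col5a1 window a GGGCGG. Searched on both strands, GGGCGG (the GC box) was in 19 of the 38 collagen windows and in 28.6% of all 32851 windows of that length. CCAAT was in 21.1% against 24.5%, and TATAAA in 10.5% against 7.57%. These matches describe letters only.

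Genes that act on collagens were taken from lists chosen with earlier results of these data known. Of 30 tested genes for procollagen processing, such as hydroxylases, chaperones, proteinases and crosslinkers, Adamts2 and P3h3 were lower in KO and Pcolce2 was higher. Over all genes 1.55% were lower and 0.934% higher. The median log2 change of the list was -0.25, beside -0.01 over all genes. Adamts2, which removes the amino propeptide of fibrillar procollagens, stood at 43.3, 37.8 and 39.7 TPM in WT and 21.4, 17.1 and 23.3 TPM in KO (log2 change -1.11 ± 0.13; edgeR adjusted p = 0.0117). P3h3, of the prolyl 3-hydroxylase family, read 74.8, 69.4 and 65.3 TPM in WT and 41.9, 42.8 and 50.2 TPM in KO (log2 change -0.79 ± 0.09; edgeR adjusted p = 0.0117). Pcolce2, an enhancer of propeptide cleavage, read 3.98, 3.72 and 5.37 TPM in WT and 7.72, 11.7 and 12.6 TPM in KO (log2 change 1.12 ± 0.21; edgeR adjusted p = 0.0395). With the block 6 of the 30 were lower and 2 higher, where 6.37% and 4.69% of all genes were.

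Not called was the collagen chaperone Serpinh1, at 1445 to 1650 TPM in WT and 1393 to 1455 TPM in KO (log2 change -0.21 ± 0.12; edgeR adjusted p = 0.342). Lox, the crosslinking oxidase, had a log2 change of -0.53 ± 0.20 (edgeR adjusted p = 0.187). With passage, P4ha3 and Tll1 rose and Plod1, Plod2 and Adamts14 fell, of 30 tested, where 2.78% and 3.48% of all genes did. The median slope of the list was -0.02.

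Of 10 tested collagen receptors, 2 were lower in KO and none higher, where 1.55% and 0.934% of all genes were. Itga11, the integrin subunit for fibrillar collagen on fibroblasts, read 122, 160 and 152 TPM in WT and 38.8, 35.3 and 80.5 TPM in KO (log2 change -1.66 ± 0.31; edgeR adjusted p = 0.0447). Mrc2, the uptake receptor for collagen fragments, read 149, 139 and 138 TPM in WT and 99.2, 107 and 128 TPM in KO (log2 change -0.49 ± 0.10; edgeR adjusted p = 0.0494). With the block Itga2, a subunit of another collagen-binding integrin, was called higher as well (log2 change 0.86 ± 0.18; edgeR adjusted p = 0.0301). That fit called 4.69% of all genes higher and 6.37% lower. None of the 10 was called for passage, where 2.78% of all genes rose and 3.48% fell. Of the 10, 4 had an unadjusted p under 0.05 for passage, as had 3516 of all 16603 genes. Of 13 tested collagen-degrading enzymes none was called for genotype by edgeR. An unadjusted p under 0.05 was seen for 3 of the 13 and for 3543 of all 16603 genes. With the block Mmp9 and Pepd were higher and Mmp2 was lower, beside 4.69% and 6.37% of all genes. Mmp16, a membrane-bound proteinase, rose with passage (log2 slope 0.41 ± 0.08; edgeR adjusted p = 0.0258).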

How the data were processed

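The expected counts of each library were deposited by the authors as made by RSEM, which divides ambiguous reads among genes, so 12.0% to 15.8% of values were not whole. The same deposited tables hold TPM, used for levels, shares and ratios, and FPKM, which the authors also gave and which was not used. Trimmomatic 0.39 was used on the reads and the build was GRCm38, per the submitters' processing notes. The RSEM version, annotation release and strand setting were not given in the sources used here, so reads of overlapping and antisense genes cannot be told apart. Of the 55487 identifiers, 55227 (99.5%) matched GENCODE M21, which gave symbols and coordinates.

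Rounded expected counts were tested with edgeR 4.0.16 (TMM, filterByExpr with a minimum count of 10, robust quasi-likelihood), two-sided, with Benjamini-Hochberg adjustment over 16603 genes. Log2 changes are unshrunk coefficients and the SE is the change divided by the square root of F. Residual degrees of freedom were 4 for genotype, 2 with the block, 3 for passage and 2 for the interaction. Alternatives used DESeq2 1.42.0 and limma 3.58.1. Shares and ratios used exact permutation tests. The fits were tested on simulated data. Deviations of WT and KO libraries of the same passage correlated at r = 0.488, 0.137 and 0.416 for passages 2, 3 and 4. Each was over 0.1, so the blocked value is given where it changes a call. The pairing comes from the passage in the labels. Between different passages r ran from -0.428 to -0.00332. Deviations were taken from the mean of 3 libraries, so these correlations are not independent.

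The members, classes and lists were chosen with earlier results of these data known. Per-library values are given for members called for genotype, passage or interaction or averaging at least 50 TPM, and up to 4 called genes per list. Others are named by their class, neighbours or the block, and were chosen after their values were seen. The floors cover counting error only, while each SD and SE also holds the spread among libraries.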

Additional observations from a re-analysis of the deposited data

How the results depend on the processing

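Pairing by passage (replicate block) raised the collagen genes called for genotype from 9 to 18, with DESeq2 17 and without the filter on low counts 15. Calls over all genes rose as well, from 412 to 1835, 1661 and 846 in the same order. No member passed on log2(TPM + 1) in limma without a filter, where 74 of 31578 genes did, or without both passage 2 libraries, where 59 of 16629 did. Leaving out 1 library gave 0 to 13, with 38 to 847 calls over all genes. The fits without libraries have fewer samples, and those without a filter test more genes; the genotype tag moves 2 KO-titled libraries to WT and leaves 1 KO library. The cause of each change was not tested. Scaling by library totals, relative log expression or without collagen genes, effective lengths, a stricter filter, limma-voom and log2(TPM + 1) or log2(TPM + 0.1) with the filter gave 8 to 10. For passage, 8 became 15 without the filter and 4 to 8 with 1 library left out; for the interaction, 0 became 1 (Col2a1) without the filter. On log2(TPM + 0.1) the median of all genes was 0.10 and that of collagens -0.37. The log2 change of Col4a2 was -0.055 with the genotype tag. That of Col8a1 was 0.0091 on log2(TPM + 1), with and without the filter, 0.0087 on log2(TPM + 0.1), and -0.31 to 0.10 with 1 library left out. The gap in collagen share was -0.83 percentage points of TPM and -2.63 of expected counts. The 6 chain ratios kept their direction in TPM, in expected counts and with each library left out. Depth limits the members under 1 TPM, where single libraries hold few counts.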
